A study of Nannochloropsis oceanica with 12 samples.

Results

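In the unicellular marine alga *Nannochloropsis oceanica*, strain IMET1, 152 genes had lower transcript levels in the carbonic anhydrase knockdown line M2 than in the wild type (WT) at 12 h and near-equal levels in the lines at 24 h. They were chosen from 9756 measured genes by the differences between the lines in log2(mean FPKM + 1), where FPKM is a fragment count divided by transcript length and by the number of mapped fragments in the library. A member had a difference, M2 minus WT, of -0.8 or lower at 12 h, an absolute difference under 0.3 at 24 h, and a mean of at least 5 FPKM in any of the 4 groups, a minimum that 9271 genes reached. The same measured values thus chose the members, and the line differences below describe them and support nothing.

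M2 is an RNA interference line of IMET1 with the carbonic anhydrase CA2 as its target, and WT is unmodified IMET1. Both lines were grown in continuous light at 5% CO2, washed, moved to fresh medium at 5% CO2, and sampled 12 h and 24 h later with 3 labelled biological replicates per line and time. Polyadenylated RNA was sequenced. The labels give whole cells as the source but nuclear RNA as the molecule subtype, and which of these the values measure is not settled. M2 is a single line compared with WT alone, so an effect of lowered CA2 and any other difference between the lines cannot be told apart. Which ID belongs to CA2 is not stated in the labels, so its level in M2 was not checked.

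Carbonic anhydrases interconvert CO2 and bicarbonate. In algae they are part of the carbon-concentrating mechanism, which raises CO2 around the carbon-fixing enzyme Rubisco and is typically less active when CO2 is plentiful. RNA interference lowers a transcript through small RNAs that match its sequence. The files pair the gene IDs, which give a scaffold and a number, with no gene names, and none of the IDs (0) was found in the available reference table of 160 genes. No member's ID carries a gene name (0 of 152), so no role can be given to any of them.

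Of the 12 labelled samples, 11 distinct libraries were available. A second column headed as M2 12 h replicate 2 was a copy of replicate 1 multiplied by 0.7235 (to within 0.1% in 9646 of 9647 genes with values above 0), so it was not used and M2 12 h had 2 libraries. WT 12 h replicate 3 stood apart: across genes its log2(FPKM + 1) values correlated at 0.686 and 0.685 with the other WT 12 h libraries, whereas all other pairs within a group correlated at 0.991 to 0.997. The rule left it out, and it is used below as a library that took no part in choosing the members. FPKM sums lay between 606886 and 617319 in the 10 libraries used by the rule, and at 780704 in WT 12 h replicate 3. Read depth is not given. In M2 12 h replicate 1, 109 genes were listed at 0 against 43 in replicate 2, and ratios of low values were best described by 1 read being worth 4.08 times as much in replicate 1 as in replicate 2, with a nearly equal score for another ratio. Each group has its own table, so effects of table and of group cannot be told apart.

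The members were a minor share of the genes that were low in M2 at 12 h. Of 586 genes with a 12 h difference of -0.8 or lower, 399 were also lower in M2 at 24 h by 0.3 or more, 35 were higher by 0.3 or more, and 152 were level. The mirror rule, a difference of 0.8 or higher at 12 h and under 0.3 in size at 24 h, found 10 genes, of 40 that were high in M2 at 12 h.

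**Figure D1:**
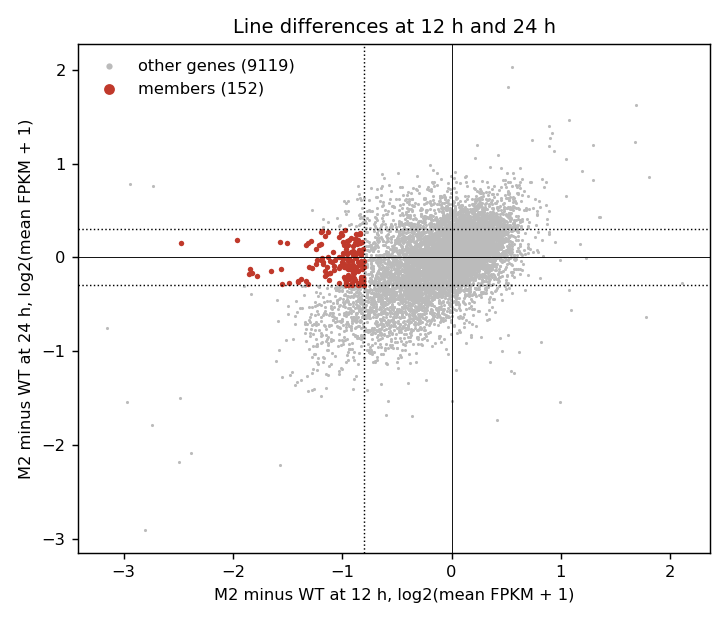
Each point is 1 gene with a mean of at least 5 FPKM in any group, placed by the difference between the lines, M2 minus WT, at 12 h (horizontal axis) and at 24 h (vertical axis) on log2(mean FPKM + 1). The 152 members (red) fill the band left of -0.8 and between -0.3 and 0.3, marked by dotted lines, and most genes left of -0.8 lie below that band.

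Most members lay close to the 12 h threshold. The median difference at 12 h was -0.96, with 94 members above -1, 47 between -1.5 and -1, 10 between -2 and -1.5, and 1 below -2. At 24 h the differences ran from -0.30 to 0.30 with a median of -0.07, and 56 members were above 0. The member nearest to the 12 h threshold had a difference of -0.80 and group means of 1.74 FPKM in M2 and 3.79 FPKM in WT, while the nearest gene outside, also at -0.80 after rounding, had 13.2 FPKM in M2 and 23.7 FPKM in WT. At the 24 h limit the last member inside had a difference of -0.2992 and the first gene outside one of -0.3005. The member with the lowest peak level reached 5.41 FPKM, and the nearest gene under that minimum reached 4.79 FPKM.

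Members were of moderate to low abundance. Their median group mean was 6.00 FPKM in M2 and 13.2 FPKM in WT at 12 h, and 16 FPKM in M2 and 17.4 FPKM in WT at 24 h. Over all 9271 genes the medians were 25.2, 26.5, 26.3 and 26.3 FPKM in the same order. By library, the median member had 5.40 and 6.51 FPKM in M2 at 12 h, against 13.7 and 13.5 FPKM in WT replicates 1 and 2. The M2 24 h libraries had medians of 16.5, 16 and 16.1 FPKM, against 16.8, 17.5 and 17.3 FPKM in WT. By these medians the M2 12 h libraries were lowest, and WT 12 h replicates 1 and 2 lay between them and the 24 h libraries. Single members differed widely, with a WT change from 12 h to 24 h of -1.74 to 3.06 on the log2 scale.

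In every member (152 of 152) both M2 values lay below both WT values at 12 h, an order that 41.6% of the 9271 genes showed and that the rule nearly fixes. In 135 members both M2 12 h values also lay below all 8 other values used by the rule, as they did in 26.2% of the 9271 genes. The rule favours this order too, since it chose low M2 12 h values. At 24 h the lines' values did not overlap in 42 members with M2 lower (32.9% of the 9271 genes) and in 21 with M2 higher (34.5%), and they overlapped in the remaining members. Replicates of M2 at 12 h varied more for the members than those of any other group. The median SD over members on the log2 scale was 0.146 for M2 at 12 h and 0.070 for WT at 12 h (n = 2 each), and 0.087 for M2 and 0.066 for WT at 24 h (n = 3 each). Over the 9271 genes it was 0.071 for M2 and 0.056 for WT at 12 h. In M2 12 h replicate 1, 4 members were listed at 0.

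**Figure D2:**
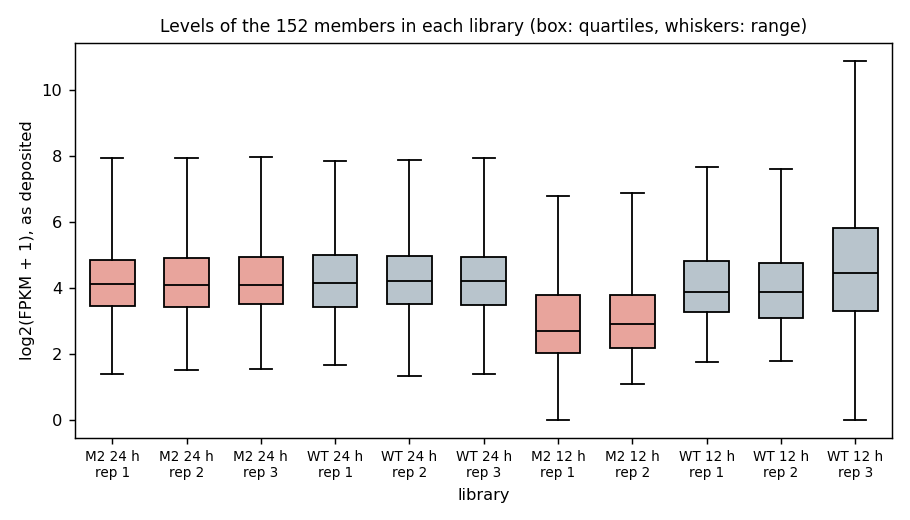
Levels of the 152 members in each of the 11 libraries, as log2(FPKM + 1) of the deposited values, with boxes for the quartiles, a line for the median and whiskers for the range (M2 red, WT grey). The medians of the M2 12 h libraries, 5.40 and 6.51 FPKM, lie below those of all other libraries, and WT 12 h replicate 3 has the widest range, up to 1887 FPKM.

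The member with the lowest 12 h difference was scaffold00140.g4741, which was near the detection limit in M2 at 12 h. It had 0.403 and 1.12 FPKM in M2 at 12 h, against 9.53 and 8.02 FPKM in WT replicates 1 and 2, a log2 difference of -2.47. In WT 12 h replicate 3, left out by the rule, it had 9.91 FPKM. At 24 h it had 3.20, 1.84 and 2.03 FPKM in M2, against 2.20, 1.49 and 2.38 FPKM in WT. WT at 12 h was the single high group, and at 24 h the lines overlapped at a low level.

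The next lowest, scaffold00300.g8725, had the other shape. It was listed at 0 in M2 12 h replicate 1 and had 4.36 FPKM in replicate 2, against 9.78 and 13.0 FPKM in WT replicates 1 and 2, a log2 difference of -1.96. WT 12 h replicate 3, left out by the rule, also listed it at 0. At 24 h it had 19.9, 15.9 and 15.7 FPKM in M2, against 12.7, 15.7 and 16.7 FPKM in WT. M2 at 12 h was the lowest group here, WT at 12 h had the next lowest mean, and the size of the M2 deficit rests on replicates that differ widely. The member after these, at -1.86, was measured more evenly, with 13.1 and 14 FPKM in M2 at 12 h, against 54.7 and 48.6 FPKM in WT. Its 24 h levels were 30.6, 29.0 and 30.4 FPKM in M2, against 32.2, 34.9 and 35.3 FPKM in WT, between the levels of the lines at 12 h.

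The lines can be level at 24 h with a higher level in M2 than at 12 h, with a lower level in WT, or with both, and the rule does not set which. It fixes only that the change with time in M2 exceeds that in WT. The mean of the changes in both lines, 24 h over 12 h, is left free by the rule, and with equal numbers of M2 and WT libraries at each time it is uncorrelated with the line differences where libraries vary equally. It was fitted with limma over 9579 genes in 10 libraries on log2(scaled FPKM + 1). By construction a member with no change in WT has a positive mean change, and one with no change in M2 a negative one. M2 at 12 h, as given above, varied more than the other groups, so choosing low M2 12 h values raises the members' mean change by an amount that was not measured. The calls below therefore describe the members and are not a test free of the rule.

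Most members had a higher mean level at 24 h. In the mean of both lines 116 of 152 members passed as higher and 13 as lower at 24 h than at 12 h (limma, 2-sided, Benjamini-Hochberg adjusted p under 0.05). Of all genes in the fit, 38.8% passed as higher and 38.1% as lower. The median mean change was 0.81 for the members and 0.00 for all genes in the fit, and 58 members passed as higher by at least 2-fold (4.85% of all genes) while 3 passed as lower by as much (1.15%). Of the 434 genes that were low in M2 at 12 h but not level at 24 h, 323 passed as higher and 42 as lower, which is 74.4% and 9.68% against 76.3% and 8.55% of the members. In the 10 libraries of the rule, which leave out WT 12 h replicate 3, every 24 h value lay above every 12 h value in 73 members (20.9% of the 9271 genes) and below in 5 (20.2%). With WT 12 h replicate 3 in the fit, 50 members passed as higher and 5 as lower, against 12.6% and 13.1% of all genes.

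The largest rise was that of scaffold00214.g6089. At 24 h it had 53.7, 53.8 and 54.2 FPKM in M2, and 50.9, 51.4 and 49.3 FPKM in WT. At 12 h it had 1.23 and 2.02 FPKM in M2, and 5.19 and 5.20 FPKM in WT. All 24 h values lay far above these 12 h values, and above the 17.7 FPKM of WT 12 h replicate 3. The change in the mean of both lines was 3.71 on log2(scaled FPKM + 1), with an SE of 0.07 and an adjusted p of 1.46e-12 by limma, and the change was 4.38 in M2 and 3.04 in WT. This member and those with the next largest rise and the deepest falls were picked by their values in this same fit. Their p-values therefore describe them and are not tests free of the rule.

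Scaffold00043.g2089 followed. At 24 h it had 38.6, 38.6 and 39.3 FPKM in M2, and 40.5, 40.8 and 38.7 FPKM in WT. At 12 h it had 2.91 and 2.75 FPKM in M2, and 7.10 and 7.45 FPKM in WT. No 24 h value overlapped these 12 h values, whereas WT 12 h replicate 3, at 102 FPKM, lay above every 24 h value. The mean change was 2.82 (SE 0.04, adjusted p = 1.77e-13 by limma), and with WT 12 h replicate 3 it was 2.15 and missed the threshold (adjusted p = 0.0513 by limma, and 1.22e-13 to 0.0513 over 19 alternatives).

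The deepest falls were those of scaffold00096.g3545 and scaffold00354.g10241. Scaffold00096.g3545 had 25.5, 25.2 and 30.1 FPKM in M2 and 32.4, 31.4 and 31.6 FPKM in WT at 24 h, against 54.4 and 49.7 FPKM in M2 and 102 and 104 FPKM in WT at 12 h. It was lower at 24 h in both lines without overlap, WT 12 h replicate 3 at 71.5 FPKM included, with a mean change of -1.33 (SE 0.05, adjusted p = 5.29e-10 by limma).

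Scaffold00354.g10241 was less even at 24 h. It had 18.8, 6.21 and 8.13 FPKM in M2 and 9.36, 14.5 and 16.9 FPKM in WT at 24 h, against 22.2 and 22.2 FPKM in M2 and 38.5 and 40.5 FPKM in WT at 12 h. Its mean change was -1.33 (SE 0.24, adjusted p = 0.000341 by limma). With WT 12 h replicate 3, where it is listed at 0, the change was -0.44 and missed the threshold (adjusted p = 0.817 by limma, and 3.12e-06 to 0.817 over 19 alternatives).

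For the pair with the lowest 12 h differences the mean change mostly restates the values that chose them, and it is given with no test. For scaffold00300.g8725 it was 1.65 (SE 0.35), made up of 2.95 in M2 and 0.36 in WT, and it was 1.03 without M2 12 h replicate 1 and 2.27 without M2 12 h replicate 2. For scaffold00140.g4741 it was -0.40 (SE 0.16), the average of a change of 0.92 in M2 and one of -1.71 in WT, which went in opposite directions.

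**Figure D3:**
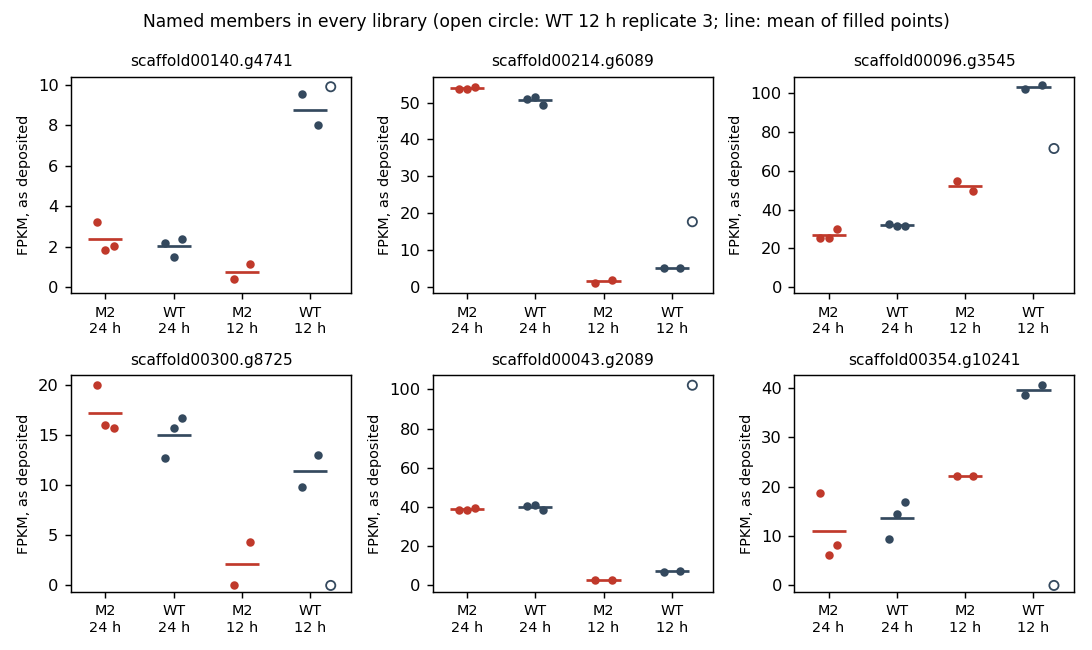
FPKM as deposited of the 6 named members in every library, M2 in red and WT in dark blue, with a line at the mean of the filled points and an open circle for WT 12 h replicate 3, which that mean leaves out. The left column holds the members with the lowest 12 h differences, the middle column those with the largest rise and the right column those with the deepest fall between 12 h and 24 h, as in scaffold00214.g6089 with 49.3 to 54.2 FPKM at 24 h and 1.23 to 5.20 FPKM in the filled points at 12 h.

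Set by the level that both lines shared at 24 h, the members fell into 5 patterns, described with no test because each line's change uses the libraries of the rule. A group mean was taken as being at the 24 h level if it was within 0.3 of it on the log2 scale. In 75 members (49.3%) the 24 h level lay above both lines at 12 h, with M2 further below it. Their median change, 24 h minus 12 h, was 1.74 in M2 and 0.69 in WT. In 45 members (29.6%) WT at 12 h was at the 24 h level and M2 alone was low.

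In the remaining members WT at 12 h lay above the 24 h level. In 19 members (12.5%) the 24 h level lay between the lines at 12 h, with a median change of 0.44 in M2 and -0.40 in WT. In 8 members (5.26%) M2 at 12 h was at the 24 h level and WT alone was high, with a median change of 0.13 in M2 and -0.70 in WT. In 5 members (3.29%) the 24 h level lay below both lines at 12 h.

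Over all members the median change with time was 1.28 in M2 (range -0.94 to 4.39) and 0.30 in WT (range -1.74 to 3.06), against 0.03 in M2 and 0.01 in WT over the 9271 genes. Changes of at least 2-fold upward were seen in 98 members in M2 and in 16 in WT, against 8.37% and 3.57% of the 9271 genes. Downward changes of that size were seen in 0 members in M2 and in 6 in WT, against 0.787% and 1.62%. The excess of M2 over WT is what the rule selected.

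**Figure D4:**
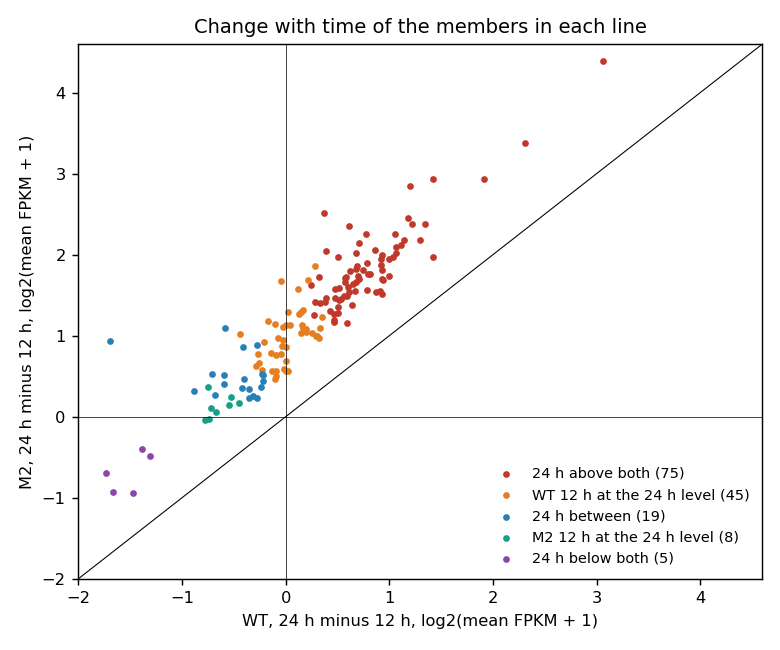
Change of each member from 12 h to 24 h, 24 h minus 12 h on log2(mean FPKM + 1), in WT (horizontal axis) and in M2 (vertical axis), coloured by pattern, with a diagonal line of equal change. All members lie above the diagonal, as the rule requires, and the 75 members in red are those whose 24 h level lies above both lines at 12 h.

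The most abundant member at 24 h belonged to the largest pattern. It had 242, 241 and 247 FPKM in M2 and 231, 233 and 242 FPKM in WT at 24 h, against 46.8 and 44.8 FPKM in M2 and 94.2 and 89.9 FPKM in WT at 12 h. The lines overlapped at 24 h and were about 2-fold apart at 12 h. Its mean change was 1.83 on the log2 scale (SE 0.02).

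WT 12 h replicate 3, which the rule did not use, was on the same side of M2 for most members, but as part of a profile unlike its group. It lay at least 0.8 above the mean of the M2 12 h libraries in 104 of 152 members, against 27.5% of the 9271 genes, and below it in 25, against 52.8% of the 9271 genes. Since the M2 values were chosen to be low, these shares are not free of the rule. Set against WT 12 h replicates 1 and 2 on log2(scaled FPKM + 1), the members had a median difference of 0.76 in replicate 3 and all 9271 genes one of -0.11. Replicate 3 was at least 4-fold above those libraries in 40 members (10% of the 9271 genes) and at least 4-fold below them in 13 (8.61%). It listed 12 members at 0 (3.74% of the 9271 genes).

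The authors' merged 12 h columns did not show the members as low in M2. In these deposited values the median member had 22.3 FPKM in M2 and 16.7 FPKM in WT, and 91 of 152 members were higher in M2, against 49.4% of the 9271 genes. The merged M2 value was lower than the merged WT value by at least 0.8 on log2(FPKM + 1) in 9 members (3.23% of the 9271 genes) and higher by as much in 24 (7.46%). The merged WT 12 h column was a weighted mean of the 3 WT libraries to within a median of 0.0127% for the members. The merged M2 12 h column differed from the best weighted mean of the M2 libraries by a median of 74.4% over the 148 members with values above 0, and by 26.4% over all genes. At 24 h the merged columns differed from such a mean by about 0.0001%, and 148 members were within 0.3 of each other in the lines, against 65.7% of the 9271 genes. That count is nearly fixed by the rule, because these columns are means of the 24 h libraries that chose the members. Which M2 libraries entered the merged 12 h column is not given in the sources used here.

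The named members were all lower in M2 in the merged 12 h columns, whereas 91 of the 152 members were higher in M2 there. Scaffold00043.g2089 had 11.1 FPKM in M2 and 38.6 FPKM in WT, and scaffold00140.g4741 had 1.75 FPKM in M2 and 7.87 FPKM in WT. Scaffold00096.g3545 had 40.0 FPKM in M2 and 77.3 FPKM in WT. Differences were under 0.8 on the log2 scale for scaffold00214.g6089, with 4.74 FPKM in M2 and 8.70 FPKM in WT, and for scaffold00354.g10241, with 11.5 FPKM in M2 and 20.2 FPKM in WT. The same held for scaffold00300.g8725, with 4.46 FPKM in M2 and 5.82 FPKM in WT. The member with the next lowest 12 h difference had 41.5 FPKM in M2 and 44.6 FPKM in WT. By pattern, the merged M2 value was above the merged WT value in 56 of the 75 members with a 24 h level above both lines and in 28 of the 45 in which M2 alone was low. In the patterns with WT high at 12 h it was above in 5 of 19, 1 of 8 and 1 of 5.

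**Figure D5:**
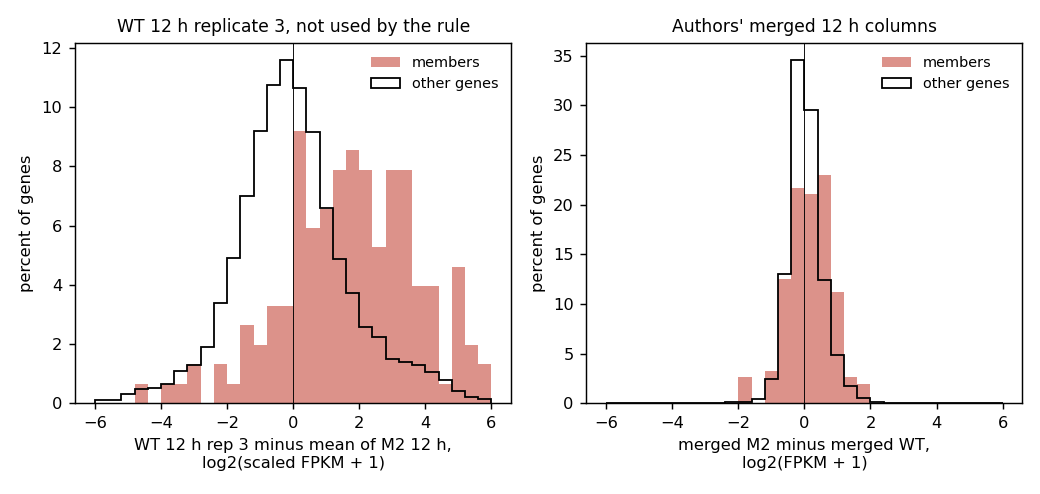
Distributions over the members (red) and all other genes with at least 5 FPKM (black outline), as percent of genes. On the left is WT 12 h replicate 3 minus the mean of the M2 12 h libraries on log2(scaled FPKM + 1), with other genes beyond 6 drawn at the edge, where 104 of 152 members lie at 0.8 or higher; on the right is merged M2 minus merged WT at 12 h on log2(FPKM + 1), where 91 of 152 members lie above 0.

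The members were spread over 57 of the 275 scaffolds that hold a gene of at least 5 FPKM, and scaffold 43 held the most, 11 of its 509 such genes. Of the genes numbered next to a member on its scaffold, 14 of 264 (5.30%) were members themselves, while members made up 1.64% of the 9271 genes. They formed 7 adjacent pairs. The other neighbours with at least 5 FPKM, 237 genes, had a median 12 h difference of -0.16, against -0.04 for the 9271 genes, and 7.17% of them were at -0.8 or lower, against 6.32%. Libraries were made without strand information, so reads of overlapping neighbours cannot be told apart.

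The densest stretch was on scaffold 26, where 5 of the 11 such genes numbered 1500 to 1510 were members, a stretch picked after the values were seen. At 12 h these 5 had group means of 2.18 to 6.08 FPKM in M2 and 6.08 to 24.4 FPKM in WT. At 24 h they had 8.78 to 21.6 FPKM in M2 and 7.36 to 23.7 FPKM in WT. In WT 12 h replicate 3 they had 26.1 to 333 FPKM, above every other library. All told, 10 of the 11 genes in the stretch had a 12 h difference below 0, with a median of -0.84, and a median 24 h difference of 0.13.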

How the data were processed

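The deposited values are FPKM per gene, 1 table per line and time, made by the authors with TopHat2 2.0.4 and Cufflinks 2.0.2, per the submitters' processing notes. No source used here gives the build or annotation, or says whether the tables share a normalization. The merged FPKM columns are the authors' own. The 12 samples were grouped by title, and 1 column of values, the repeated M2 12 h column, was not assigned.

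The membership rule used FPKM as deposited. For the test, 10 libraries were scaled by median-of-ratios factors (0.963 to 1.02) over 9615 genes above 0 in all of them. The 9579 genes averaging at least 1 FPKM, all 152 members included, were fitted with a mean per group on log2(scaled FPKM + 1), which understates changes of low genes, with limma 3.58.1 in R 4.3.3 and an intensity trend and with no replicate block. P-values were adjusted over all genes by the Benjamini-Hochberg method, threshold 0.05. The fit was also run on simulated data with the same SD per gene in all groups. That run cannot speak to the larger spread of M2 at 12 h or to the choice of members. WT 12 h replicate 3 was scaled separately, by a factor of 0.769. The design text calls the replicates biological but does not say that they were separate cultures, so p-values measure only the spread between these libraries.

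The members, patterns and tests were chosen with earlier results of these data known. Named were the 2 members with the lowest 12 h difference and, among members past the threshold in the mean change with time, the 2 highest and 2 lowest. Alternatives covered pseudocounts, filters, scalings, moderation, the replicate block and leaving out each library. Python 3.11.15 with pandas 2.3.3, numpy 2.4.6, scipy 1.17.1 and matplotlib 3.10.9 made the tables and figures.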

Additional observations from a re-analysis of the deposited data

Results flagged for a closer look

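In 19 members the 24 h level lay between the lines at 12 h, so that the group mean was higher at 24 h in M2 and lower at 24 h in WT. The difference between the lines in this change was not tested, because the rule selects for it.

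The authors' merged M2 12 h column took no part in the rule or the fit. It was above the merged WT 12 h column in 91 of 152 members, against 49.4% of the 9271 genes. In each of these members both M2 12 h libraries lay below WT 12 h replicates 1 and 2. The merged WT 12 h column also includes WT 12 h replicate 3, which lay below M2 in some of them, so the comparisons rest on unlike libraries. The merged M2 12 h column differed from the best weighted mean of the M2 12 h libraries by a median of 74.4% for the members.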

How the results depend on the processing

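With WT 12 h replicate 3 in the fit, 55 members were called in the mean change with time against 129 without it, 50 higher and 5 lower at 24 h. Of all genes in the fit, 12.6% were then called higher and 13.1% lower, against 38.8% and 38.1% without it. All 55 were among the 129 and kept their direction, and 10 of the 129 changed sign in the estimate. Other pseudocounts, filters, scalings and moderation gave 121 to 132 calls. In those fits 37.5% to 41.3% of all genes were called higher and 35.1% to 39.6% lower. Leaving out 1 of the 24 h libraries gave 123 to 128 calls, with 37.7% to 38.1% of all genes called higher and 36.6% to 37.3% lower. The members' median change was 0.69 without M2 12 h replicate 1 and 0.83 without M2 12 h replicate 2, fits that leave 1 M2 12 h library. Same-numbered libraries of different groups showed no shared deviation (correlations -0.0417 to 0.0336). With so few libraries per group these values cannot exclude a pairing by number. With the replicate block 125 members were called, 113 higher and 12 lower, against 37.2% and 36.4% of all genes.

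The rule itself depends on its settings. A pseudocount of 5 gave 53 members, 42 of them among the 152, and a pseudocount of 0.1 gave 195, with 142 of the 152. WT 12 h means over all 3 replicates gave 557, with 110 of the 152. Leaving out 1 library gave 137 to 211 members, with 105 to 149 of the 152. FPKM scaled by median-of-ratios factors gave 145, with 119 of the 152, and FPKM scaled to an equal sum gave 166, with 145 of the 152. A pseudocount of 0.1 raised the members lower by 0.8 in the merged M2 12 h column to 14, against 9. The causes were not tested. Read depth is unknown, which limits members of few FPKM most, above all in M2 12 h replicate 1.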
